A study of Mus musculus with 14 samples.

Results

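Chromatin accessibility was examined at 8 forkhead genes other than Foxp3, namely Foxo1, Foxo3, Foxp1, Foxp4, Foxk1, Foxk2, Foxn3 and Foxj2, in Treg cells from the spleen and lymph nodes of Foxp3AID mice. A window belonged to one of these genes when the gene had the protein-coding start site nearest to the window's centre and that site lay within 100 kb. By this rule 577 of 240778 windows (0.240%) were members, in 368 stretches of touching or overlapping windows of 201 bp. Foxp1 held 253 of them, Foxn3 89, Foxo1 77, Foxo3 47, Foxp4 46, Foxk1 38, Foxj2 18 and Foxk2 9. Between Foxp3-degraded and control Treg cells, none of the 8 genes and none of the 577 windows passed the test, and what distinguished the genes was their level and layout, which are described first. All 14 libraries were used. On day 3 of 5-ph-IAA treatment there were 4 R26TIR1(F74G) and 4 R26WT libraries, and on day 7 there were 3 of each. All mice carried the Foxp3AID allele, which fuses an auxin-inducible degron to Foxp3 and also encodes ZsGreen and Cre, and all received the drug. R26TIR1(F74G) mice also carried a plant-derived ubiquitin ligase, active only where Cre of the Foxp3 locus had removed a stop cassette, so that 5-ph-IAA led to degradation of Foxp3 in Treg cells. R26WT mice lacked that ligase. The cells of the R26TIR1(F74G) mice were sorted on ZsGreen and mCherry, those of the R26WT mice on ZsGreen alone, so genotype and gate cannot be told apart. The labels give no ages. The paper describes its bulk accessibility work on day 7 as done on resting and activated Treg cells of heterozygous Foxp3AID/WT mice. Such mice also hold Treg cells that use the wild-type allele and keep Foxp3. That allele encodes no ZsGreen, so a ZsGreen gate leaves those cells out. The sample titles name day, genotype and replicate, but neither activation state nor heterozygosity.

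Forkhead proteins share a winged-helix DNA-binding domain that reads a short core sequence related to TGTTTA, and Foxp3 is itself a member of the family. FOXO proteins are held in the cytoplasm when the kinase AKT phosphorylates them and enter the nucleus when antigen receptor and growth factor signalling is low. In T cells Foxo1 and Foxo3 are known for sustaining quiescence, homing and Treg differentiation. Foxp1 and Foxp4 are the relatives of Foxp3 closest in structure among these genes, act mainly as repressors and can form dimers with other FOXP proteins, and Foxp1 is known for holding naive T cells at rest. Foxk1 and Foxk2 recruit the Sin3 corepressor and take part in metabolic and autophagy gene control. Foxn3 is a repressor linked to the cell cycle checkpoint, and Foxj2 is an activator with broad expression.

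The sequences in front of the start sites of the genes examined are given first because the members themselves bind DNA through the core TGTTTA. RefSeq (GRCm38.p6) held 9 promoter entries for 7 of the 8 genes. Foxk1 had none in the table used. The 250 bases upstream of each start site were searched for TGTTTA on either strand (TAAACA on the other strand). All 3 Foxp1 entries held the core and none of the other 6 entries did, whereas 10.5% of 21262 promoters of the same length held it. The Foxp1 start site 99522746 and the Foxn3 start site 99563667 had no entry and were not searched. The 3 Foxp1 promoters are shown for that reason, on the minus strand at chr6:99520994-99521243, chr6:99266516-99266765 and chr6:99028299-99028548, with the core in capitals.
Foxp1 start site 99520993: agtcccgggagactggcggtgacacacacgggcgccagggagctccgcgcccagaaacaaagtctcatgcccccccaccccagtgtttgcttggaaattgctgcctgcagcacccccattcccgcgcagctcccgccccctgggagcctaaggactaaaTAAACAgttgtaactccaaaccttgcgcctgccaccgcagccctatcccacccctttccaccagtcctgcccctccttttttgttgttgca
Foxp1 start site 99266515: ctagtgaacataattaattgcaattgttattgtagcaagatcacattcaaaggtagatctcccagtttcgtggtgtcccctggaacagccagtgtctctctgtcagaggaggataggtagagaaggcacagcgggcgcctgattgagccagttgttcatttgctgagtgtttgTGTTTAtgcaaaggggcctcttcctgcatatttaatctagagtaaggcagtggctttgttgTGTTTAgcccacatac
Foxp1 start site 99028298: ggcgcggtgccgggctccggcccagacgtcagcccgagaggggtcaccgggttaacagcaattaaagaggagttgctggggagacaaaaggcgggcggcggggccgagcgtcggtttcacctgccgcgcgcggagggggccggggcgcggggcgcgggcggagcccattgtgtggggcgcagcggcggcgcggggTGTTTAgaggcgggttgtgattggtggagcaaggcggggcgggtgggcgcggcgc
Counted from the start site, the core began at -91 in the Foxp1 promoter of start site 99520993, at -77 and -16 in that of 99266515 and at -55 in that of 99028298. The promoters of Foxo3 (chr10:42276696-42276945, minus strand) and Foxo1 (chr3:52268087-52268336, plus strand) are shown because these start sites were the most accessible of the family.
Foxo3: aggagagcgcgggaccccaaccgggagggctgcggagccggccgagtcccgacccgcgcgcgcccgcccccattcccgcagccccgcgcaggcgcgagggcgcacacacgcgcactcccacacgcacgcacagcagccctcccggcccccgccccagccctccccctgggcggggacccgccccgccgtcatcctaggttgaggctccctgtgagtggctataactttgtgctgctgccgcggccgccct
Foxo1: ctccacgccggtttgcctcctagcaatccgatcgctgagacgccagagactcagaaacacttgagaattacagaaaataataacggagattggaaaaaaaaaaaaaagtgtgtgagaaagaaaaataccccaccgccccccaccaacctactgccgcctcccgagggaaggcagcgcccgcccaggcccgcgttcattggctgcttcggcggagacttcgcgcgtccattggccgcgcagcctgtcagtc
These matches are a description of letters and not of binding. The Ets core CCGGAA and the Runx core TGTGGT, searched in the same way on both strands, were in none of the 9 promoters, against 15.0% and 12.4% of all promoters. CpG dinucleotides numbered 48 in the 250 bases of Foxk2, 36 in Foxj2, 34 in Foxp1 (99028298), 31 in Foxo3, 27 in Foxp4 and 20 in Foxo1. They numbered 11 and 3 in the other Foxp1 entries and 5 in the Foxn3 entry, against a median of 10 over all promoters. Deposited windows covered 217 of the 250 bases at Foxp1 99028298, 179 at Foxp1 99520993, 202 at Foxp4, 196 at Foxk2, 155 at Foxo3 and 53 at Foxj2, with Foxo1 between Foxo3 and Foxj2. No window reached the promoter at Foxp1 99266515 or the Foxn3 entry, which is an internal start site.

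Library totals ran from 5653289 to 20184487 counts, lowest in the day 3 R26TIR1(F74G) replicate 1 and, at 6348754, the day 7 R26WT replicate 3. Member windows took 0.199% to 0.215% of each library. The share of counts in the 20000 most accessible windows, a measure of how concentrated the signal was, ran from 42.8% to 48.8%. It was 42.8% and 44.2% in the day 3 R26TIR1(F74G) replicates 3 and 4, 42.9% in the day 7 R26WT replicate 3 and 44.9% to 48.8% in the day 3 R26WT libraries. Start-site windows were listed for 6 of 7 Treg and CD4 T cell marker genes, with a median of 13.6 CPM (counts scaled to a common library size) in the windows nearest the start. They were listed for 2 of 8 B cell markers and 3 of 8 myeloid markers, each with a median of 1.3 CPM, and for both CD8 markers, with a median of 6.9 CPM. Of 3 NK cell markers, only Eomes had one (1.31 CPM). The NK cell list averaged 6.59 CPM per window against 3.84 for the Treg and CD4 T cell markers. That average rested on Klrb1c, which had no start-site window but held 18 windows with 18.7 CPM per window. Eomes held 2.49 CPM per window over 52 windows and Ncr1 1.58 CPM in its 1 window, both below 3.84. The part of NK cells in the results was not tested. Resting Treg markers had one in 8 of 8 genes (median 19.7 CPM) and activated Treg markers in 7 of 10 (median 3.7 CPM). All 8 members had one, with a median of 15.3 CPM, against 15.9 CPM over 11760 genes. In bulk libraries a smaller share of cells with an open window and less opening in every cell cannot be told apart.

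Foxo3 and Foxo1 had the most accessible start sites among the members, and Foxj2 had the highest level per window. The median member window stood at 1.83 CPM, close to the 1.80 CPM over all windows, and 30 members (5.2%) were above 10 CPM against 8.91% of all windows. Most member counts lay away from start sites. Windows within 500 bp of a start site held 16.1% of the members' counts, those from 500 bp to 10 kb 32.4% and those from 10 to 100 kb 51.5%, against 45.5%, 24.5% and 30.1% for the windows of all genes. The distal share was highest for Foxn3 (83.7%), followed by Foxk1 (75.2%) and Foxp1 (66.1%). Foxk2 was the opposite case, with 67.2% of its counts within 500 bp of its start site. Foxj2 and Foxo3 had most of their counts, 72.3% and 62.0%, between 500 bp and 10 kb. The mean CPM per window over the 14 libraries was 10.2 ± 0.505 (SD) for Foxj2, 6.82 ± 0.296 for Foxo3, 4.78 ± 0.686 for Foxk2, 3.82 ± 0.188 for Foxo1, 3.38 ± 0.251 for Foxk1, 2.90 ± 0.125 for Foxp1, 2.83 ± 0.177 for Foxn3 and 2.61 ± 0.137 for Foxp4. Each gene in this order lay above the next in 13 or 14 of 14 libraries, except that Foxp1 lay above Foxn3 in 7 of 14, so these neighbours were not separated beyond their spread.

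**Figure D1:**
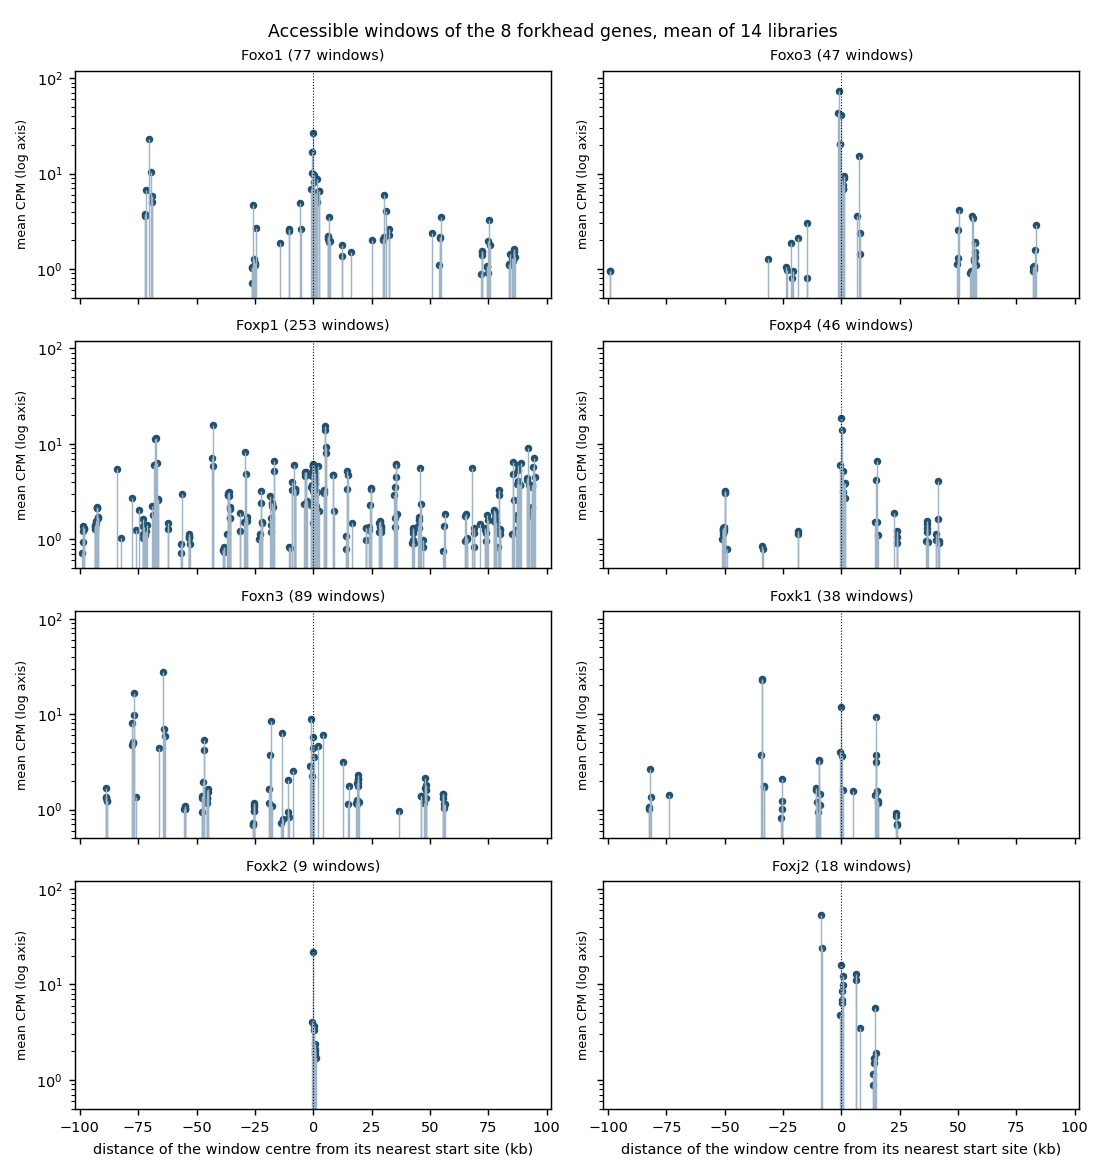
Member windows of the 8 genes, with the distance of each window's centre from the nearest start site in kb on the x axis and its mean CPM over the 14 libraries on the y axis (log scale), one panel per gene. The highest points are a Foxo3 window at 73.1 CPM beside its start site and a Foxj2 window at 54.0 CPM, 8.8 kb upstream, while Foxn3 and Foxk1 have their highest windows 64.3 and 34.1 kb from the start.

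The single most accessible window lay at the start site for Foxo1 (chr3:52268223-52268424, 26.8 CPM), Foxk2 (chr11:121259791-121259992, 21.9 CPM) and Foxp4 (chr17:47924637-47924838, 18.8 CPM). For Foxo3 it lay 1.1 kb upstream (chr10:42277703-42277904, 73.1 CPM) and for Foxj2 8.8 kb upstream (chr6:122811329-122811530, 54.0 CPM). The other 3 genes had it far from any start site. It lay 64.3 kb upstream of Foxn3 (chr12:99627892-99628093, 27.6 CPM), 34.1 kb upstream of Foxk1 (chr5:142367321-142367522, 23.4 CPM), and inside Foxp1, 43.1 kb upstream of its internal start site 99266515 (chr6:99309559-99309760, 15.7 CPM). Foxo1 also had a distal window almost as high as its start, 70.2 kb upstream (chr3:52198056-52198257, 23.0 CPM).

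Summed over the windows within 500 bp, start-site accessibility was 69.9 ± 5.84 CPM at Foxo3 (mean ± SD, n = 14), 61.6 ± 6.13 at Foxo1, 38.0 ± 3.94 at Foxp4, 37.8 ± 3.48 at Foxj2, 35.4 ± 4.64 at the Foxp1 start site 99028298, 28.9 ± 4.50 at Foxk2, 15.4 ± 1.65 at Foxk1 and 13.7 ± 1.69 at the Foxn3 start site 99563667. The other Foxp1 start sites followed, with 12.1 ± 1.86 at 99522746, 10.6 ± 1.78 at 99520993 and 10.4 ± 1.58 at 99266515, and the internal Foxn3 start site 99450074 had no window within 500 bp. Foxo3 lay above Foxo1, and Foxo1 above Foxp4, in 14 of 14 libraries. Foxp4 lay above Foxj2 in 8 of 14 and Foxp1 99520993 above 99266515 in 6 of 14, so these pairs were not ordered. Windows overlap, so a read can count in more than 1 of them. The Foxp1 sums held 7 windows at 99028298, 4 at 99520993 and 2 each at 99522746 and 99266515. The sum at 99028298, the highest of these, was not corrected for the number of windows.

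**Figure D2:**
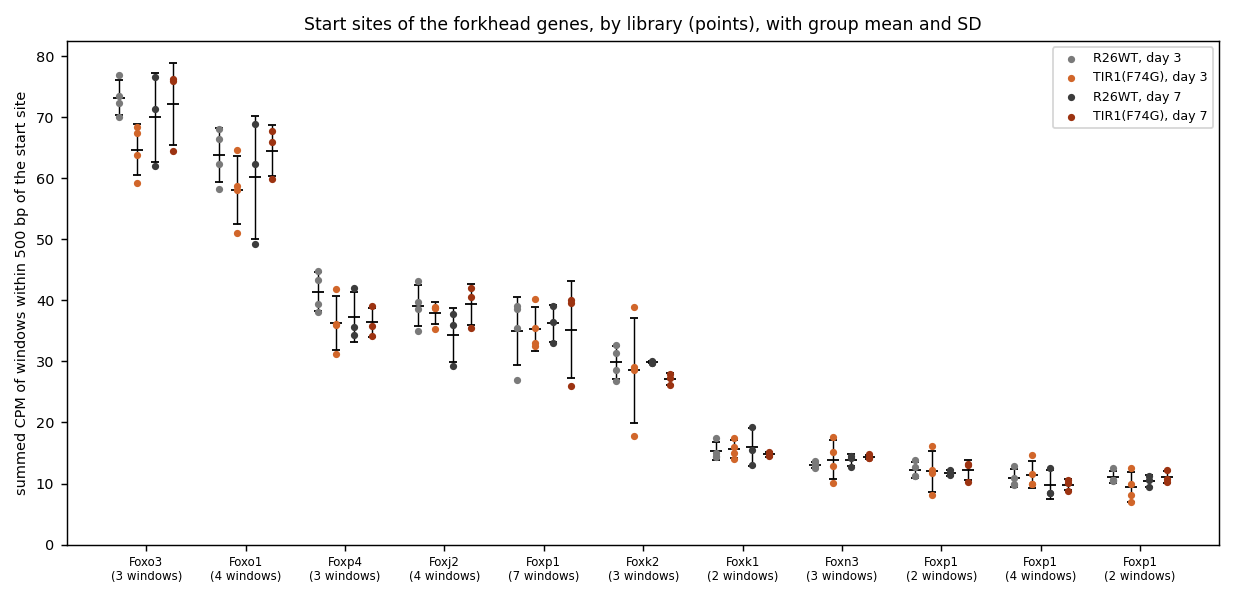
Summed CPM of the windows within 500 bp of 11 start sites of the 8 genes, in falling order of the mean over 14 libraries. Each point is 1 library, with the mean and SD of each group. Foxo3 and Foxo1 stand apart at 69.9 and 61.6 CPM, and the 3 lowest sums all belong to Foxp1. The number of windows summed differs between start sites and is given under each.

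In the 2 libraries with the lowest share of counts in the most accessible windows, the day 3 R26TIR1(F74G) replicate 3 and the day 7 R26WT replicate 3, the Foxo1 start window (20.6 and 22.3 CPM), the Foxo3 start window (33.4 and 34.5 CPM) and the Foxo3 window 1.1 kb upstream (60.5 and 64.0 CPM) were at their lowest of all 14 libraries. The part of this measure in the comparisons was not tested. Between genotypes and between days, each gene was compared by the sum of its windows and each window was then compared alone, with edgeR's quasi-likelihood test and Benjamini-Hochberg adjustment over all genes or all windows. A window was tested where its mean count over the libraries compared was at least 10. A gene or window was called when its adjusted p was under 0.05. No member gene and no member window was called in any of the 6 comparisons. A log2 difference below is R26TIR1(F74G) minus R26WT unless days are named, and summed CPM is scaled by the sums of all genes. The deposited column names give each of the 14 libraries a mouse of its own.

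At Foxo1 and Foxo3 the genotypes differed by less than 1.1-fold on either day, and neither gene was called. For Foxo1, the sums on day 3 were 299.6, 290.5, 303 and 301 CPM in the R26WT libraries and 272, 301, 283 and 289.5 CPM in the R26TIR1(F74G) libraries. On day 7 they were 317, 287 and 271 CPM and 320.4, 287 and 298 CPM. The groups overlapped on both days. The log2 difference was -0.062 ± 0.0462 (SE, 95% confidence interval -0.16 to 0.034, adjusted p = 0.516) on day 3 and 0.046 ± 0.0633 (SE, 95% confidence interval -0.09 to 0.18, adjusted p = 0.877) on day 7. The sums of Foxo3 on day 3 were 310.3, 307, 323 and 339 CPM in R26WT and 320.2, 331, 299 and 309 CPM in R26TIR1(F74G) libraries. On day 7 they were 324, 323 and 311 CPM and 339, 309 and 345 CPM. The ranges again overlapped, with a log2 difference of -0.027 ± 0.0489 (SE, 95% confidence interval -0.13 to 0.075, adjusted p = 0.822) on day 3 and 0.05 ± 0.0540 (SE, 95% confidence interval -0.066 to 0.17, adjusted p = 0.838) on day 7. Over both days together the differences were -0.013 ± 0.0392 (SE, 95% confidence interval -0.094 to 0.068, adjusted p = 0.913) for Foxo1 and 0.0086 ± 0.0363 (SE, 95% confidence interval -0.067 to 0.084, adjusted p = 0.943) for Foxo3.

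Foxp1 had the largest number of windows, and the coefficient of variation of its sum over all 14 libraries was 4.31%. On the log2 scale its spread and that of Foxo3, with 47 windows, were alike, at 0.0605 and 0.0599 (root mean square). On day 3 the sums were 742, 730.3, 749 and 768 CPM in R26WT and 775, 772, 706 and 679.7 CPM in R26TIR1(F74G) libraries. On day 7 they were 743, 704 and 751 CPM and 741, 678 and 717 CPM. The R26TIR1(F74G) libraries of day 3 held both the highest and the lowest values, around those of R26WT. The log2 difference was -0.031 ± 0.0446 (SE, 95% confidence interval -0.12 to 0.062, adjusted p = 0.761) on day 3, -0.042 ± 0.0488 (SE, 95% confidence interval -0.15 to 0.063, adjusted p = 0.853) on day 7 and, for the days combined, -0.034 ± 0.0330 (SE, 95% confidence interval -0.10 to 0.035, adjusted p = 0.689). The fitted difference of Foxp4 was of opposite sign on the 2 days. Its sums on day 3 were 134.95, 122.1, 115.9 and 119.9 CPM in R26WT and 121.3, 121.4, 121.3 and 124.04 CPM in R26TIR1(F74G) libraries. On day 7 they were 113.4, 110.8 and 113.7 CPM and 118.9, 126.97 and 114.1 CPM, and this was the only member gene whose day 7 genotype groups did not overlap. Across all genes, 14.4% did not overlap on day 7. The log2 difference of Foxp4 was -0.016 ± 0.0612 (SE, 95% confidence interval -0.14 to 0.11, adjusted p = 0.922) on day 3, 0.091 ± 0.0619 (SE, 95% confidence interval -0.042 to 0.22, adjusted p = 0.735) on day 7 and, for the days combined, 0.032 ± 0.0431 (SE, 95% confidence interval -0.057 to 0.12, adjusted p = 0.785). In the sums of windows within 10 kb of the start site the day 7 value was -0.0019 and the combined value -0.057, both of the opposite sign.

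Foxk1 was the member with the largest difference by genotype on day 3. Its sums were 141.5, 128.7, 132.4 and 132.3 CPM in the R26WT libraries and 106.5, 121.6, 126.4 and 122.9 CPM in the R26TIR1(F74G) libraries. Every R26WT value lay above every R26TIR1(F74G) value, and Foxk1 was the only member gene without overlap on day 3, against 7.72% of all genes. The lowest value was that of the day 3 R26TIR1(F74G) replicate 1, the library with the fewest counts. The log2 difference was -0.16 ± 0.0630 (SE, 95% confidence interval -0.29 to -0.029, adjusted p = 0.230), with an unadjusted p of 0.0191. Without replicate 1 of R26TIR1(F74G) it was -0.12 (adjusted p = 0.322) and without replicate 1 of R26WT -0.13 (adjusted p = 0.419) in the same edgeR test, and in the sums of windows within 10 kb of the start site -0.11 (adjusted p = 0.600). An unadjusted p under 0.05 was reached by 1 of 8 member genes on day 3, against 16.2% of all genes, and a call by 0 of 8, against 0.101%. On day 7 the sums overlapped, at 129.1, 129.3 and 146.8 CPM in R26WT and 121.9, 133.7 and 125.4 CPM in R26TIR1(F74G) libraries, with a log2 difference of -0.083 ± 0.0670 (SE, 95% confidence interval -0.23 to 0.061, adjusted p = 0.777). Over both days it was -0.13 ± 0.0463 (SE, 95% confidence interval -0.22 to -0.029, adjusted p = 0.263) with an unadjusted p of 0.0127, again the only one of 8 under 0.05, against 13.4% of all genes. Called genes made up 0.0252% over both days, and none was a member. No member gene kept its groups apart over both days, against 0.353% of all genes.

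The paralogue Foxk2 rested on 9 windows and had the widest spread of the family, with a coefficient of variation of 14.4%. On day 3 its sums were 47.4, 37.4, 40.1 and 44.8 CPM in R26WT and 55.9, 42.2, 30.2 and 42.9 CPM in R26TIR1(F74G) libraries. On day 7 they were 46.7, 40.6 and 50.9 CPM and 42.8, 39.2 and 41.1 CPM. The day 3 R26TIR1(F74G) libraries spanned the whole range of the other groups. The log2 difference was -0.012 ± 0.129 (SE, 95% confidence interval -0.28 to 0.26, adjusted p = 0.974) on day 3 and -0.15 ± 0.0938 (SE, 95% confidence interval -0.36 to 0.047, adjusted p = 0.712) on day 7, and the interval on day 3 was wide enough to hold the Foxk1 difference.

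For Foxn3, the sums on day 3 ran from 242 to 271 CPM in R26WT and from 250.3 to 284 CPM in R26TIR1(F74G) libraries, and on day 7 from 226 to 267 and from 225 to 254 CPM. The log2 difference was 0.046 ± 0.0528 (SE, 95% confidence interval -0.064 to 0.16, adjusted p = 0.695) on day 3 and -0.018 ± 0.0668 (SE, 95% confidence interval -0.16 to 0.13, adjusted p = 0.960) on day 7. For Foxj2 the day 3 sums ran from 173 to 192 and from 180.1 to 191 CPM, and the day 7 sums from 168 to 184 and from 174 to 199.9 CPM. Its log2 difference was 0.0036 ± 0.0519 (SE, 95% confidence interval -0.10 to 0.11, adjusted p = 0.980) on day 3 and 0.10 ± 0.0632 (SE, 95% confidence interval -0.033 to 0.24, adjusted p = 0.712) on day 7. Both genes overlapped between genotypes on each day. On day 7, 0 of 8 member genes had an unadjusted p under 0.05, against 7.33% of all genes, and 0 were called, against 0% of all genes. Across the 8 genes, the 95% intervals on the log2 scale reached from -0.36 to 0.24 on day 7 and from -0.29 to 0.26 on day 3. For the days combined they reached from -0.27 to 0.13. Each interval is that of 1 gene sum, unadjusted for the number of genes, and sets no limit on differences at single windows.

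**Figure D3:**
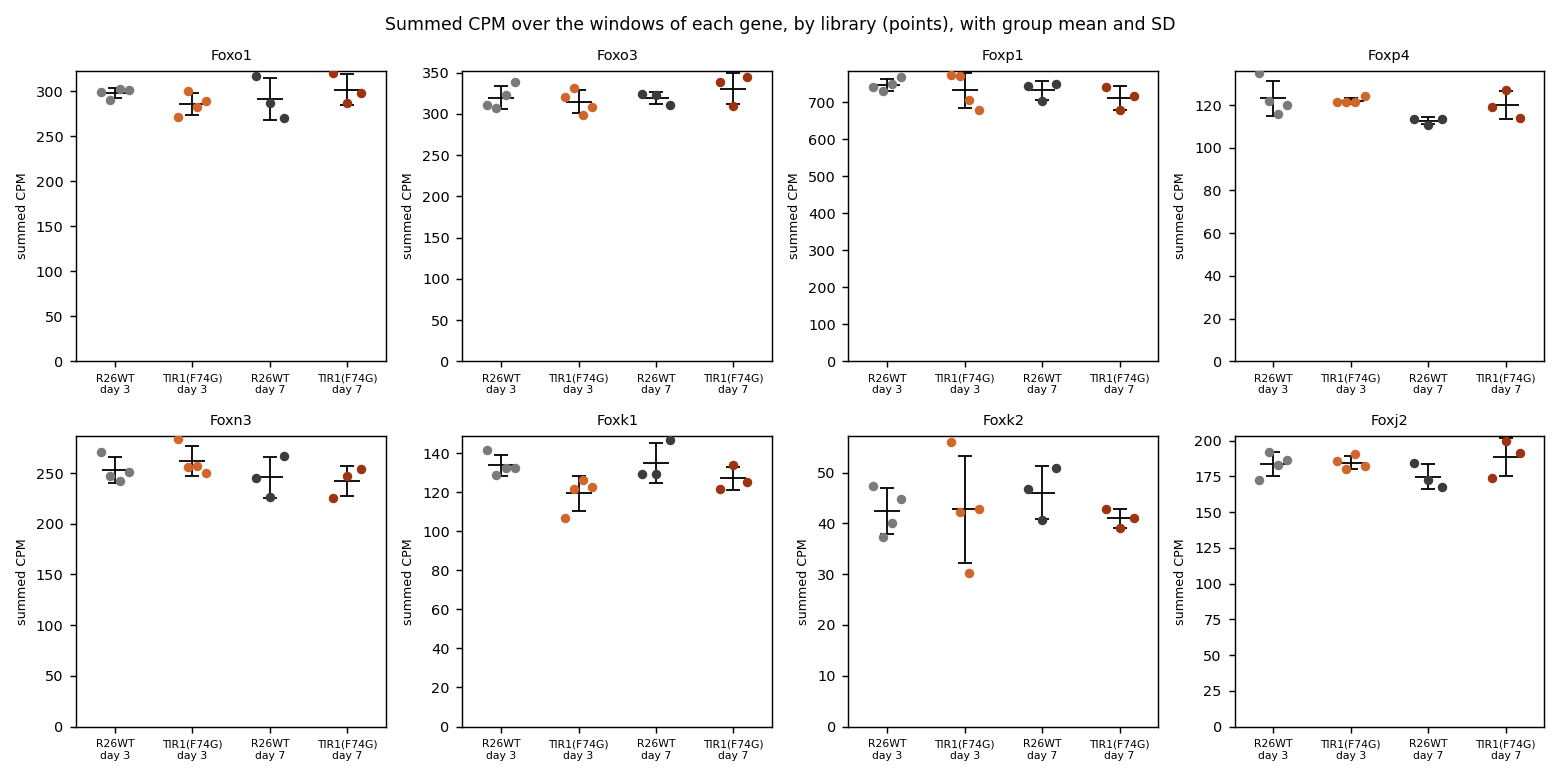
Summed CPM of each gene's windows in each library, one panel per gene, with the 4 groups on the x axis, the mean as a line and the SD as a bar. Genotype groups overlap in every panel on both days except Foxk1 on day 3 and Foxp4 on day 7.

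**Figure D4:**
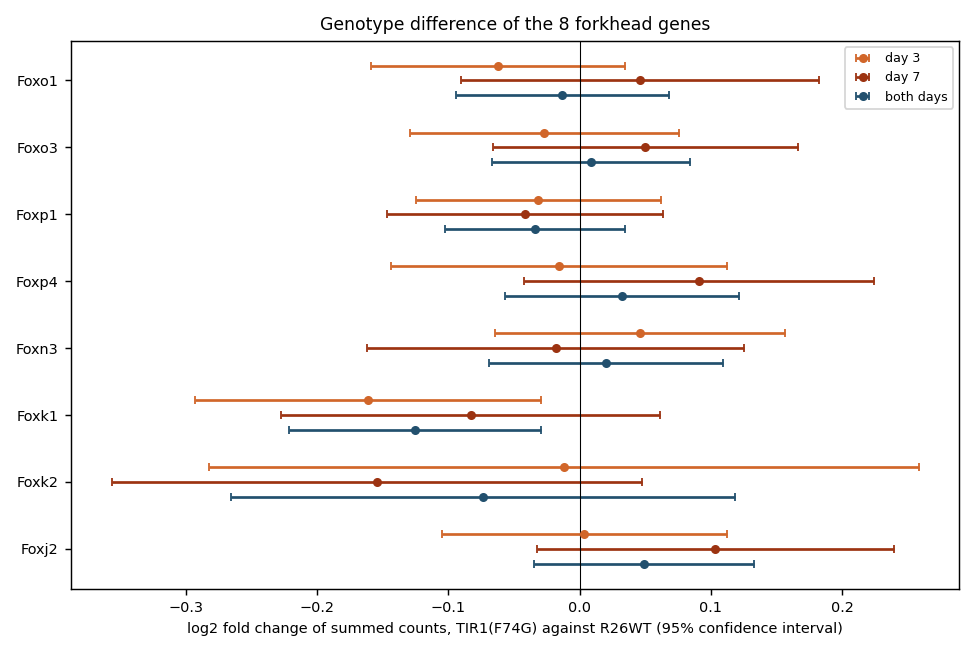
Log2 difference of R26TIR1(F74G) minus R26WT in summed counts for the 8 genes, with 95% confidence intervals, by day and for the days combined. The intervals of Foxk1 lie below 0 on day 3 and over both days, and all others cross 0.

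Among single windows, 33 of 566 tested members had an unadjusted p under 0.05 on day 3 (5.83%, 7 higher and 26 lower), against 7.55% of all windows. No member was called, against 0% of all windows, and the lowest adjusted p of a member was 0.423. The groups of 21 members did not overlap (3.71%), against 4.1% of all windows. These shares were near or below the background. Members were higher in 216 and lower in 350 cases, a share of 38.2% higher against 51.2% of all windows, with a median log2 difference of -0.068 against 0.0078. With library totals as the scale the split was 273 higher and 293 lower (48.2%), with a median of -0.011 against 0.064 over all windows, of which 59.4% were higher. By gene, 32 of 37 Foxk1 windows, 159 of 248 Foxp1 windows and 56 of 76 Foxo1 windows were lower. For Foxo3, 22 of 47 were lower. Windows of 1 gene share their libraries and partly their reads, so these are counts and not a test.

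The smallest p of any member on day 3 belonged to a window upstream of Foxk1, chr5:142391668-142391869, 9.7 kb from the start site. It held 4.67, 3.11, 4.51 and 4.96 CPM in the R26WT and 2.16, 3.00, 2.39 and 2.41 CPM in the R26TIR1(F74G) libraries of day 3. The groups did not overlap, and the log2 difference was -0.75 ± 0.207 (SE, adjusted p = 0.423). On day 7 the window held 2.39, 2.50 and 3.90 CPM in R26WT and 3.16, 2.50 and 3.69 CPM in R26TIR1(F74G) libraries, which overlapped. The overlapping window chr5:142391735-142391936 shares part of its reads and had -0.71 ± 0.204 (SE, adjusted p = 0.443) on day 3. Neither was called. At Foxo1, the window chr3:52257778-52257979, 10.5 kb upstream, held 3.03, 2.71, 3.76 and 2.66 CPM in R26WT and 1.98, 2.36, 1.79 and 1.29 CPM in R26TIR1(F74G) libraries of day 3, without overlap. Its log2 difference was -0.69 ± 0.237 (SE, adjusted p = 0.521). The members that were higher in R26TIR1(F74G) on day 3 with the smallest p and no overlap were of low level. The Foxp1 window chr6:99066378-99066579, 38.2 kb upstream of a start site, held 0.529 to 0.615 CPM in R26WT and 1.05 to 1.44 CPM in R26TIR1(F74G) libraries, with 1.00 ± 0.393 (SE, adjusted p = 0.57). A window inside Foxn3, chr12:99475209-99475410, held 0.463 to 0.683 and 0.885 to 1.27 CPM, with 0.92 ± 0.406 (SE, adjusted p = 0.614). A neighbour of the Foxp1 window at 99066471 had 0.77 ± 0.394 (SE, adjusted p = 0.672). The mean count over the 14 libraries was 10.9 at the Foxp1 and 13 at the Foxn3 window, so a few reads set these values.

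On day 7, 30 of 573 tested members had an unadjusted p under 0.05 (5.24%, 11 higher and 19 lower), against 5.95% of all windows. None was called, against 0.00463% of all windows, and the lowest adjusted p of a member was 0.682. The groups of 59 members did not overlap (10.3%), against 11.8% of all windows. The members split into 279 higher and 294 lower, and their median log2 difference of -0.0088 was close to the -0.0066 of all windows. Inside Foxp1, the window chr6:99432266-99432467, 88.6 kb downstream of the start site 99520993, held 4.07, 5.00 and 5.85 CPM in R26WT and 2.94, 3.76 and 3.29 CPM in R26TIR1(F74G) libraries of day 7, without overlap. The log2 difference was -0.54 ± 0.199 (SE, adjusted p = 0.745). Its overlapping neighbour at 99432233 had -0.50 ± 0.196 (SE, adjusted p = 0.777). The window itself held 2.51, 3.97, 3.76 and 3.95 CPM in R26WT and 2.88, 3.22, 2.53 and 3.70 CPM in R26TIR1(F74G) libraries of day 3, which overlapped. Upstream of Foxn3, chr12:99609101-99609302 held 0.969, 1.05 and 2.85 CPM in R26WT and 0.695, 0.417 and 0.759 CPM in R26TIR1(F74G) libraries, with -1.17 ± 0.430 (SE, adjusted p = 0.745). The R26WT replicate 3, the shallowest library of that group, lay far above the other two. Among members higher in R26TIR1(F74G), the Foxp4 window chr17:47974985-47975186, 50.5 kb upstream, held 0.775, 0.756 and 0.450 CPM in R26WT and 1.44, 1.25 and 1.52 CPM in R26TIR1(F74G) libraries, with 1.00 ± 0.375 (SE, adjusted p = 0.763). Foxo1 windows 29.8 kb and 74.5 kb downstream of the start had differences of 0.77 ± 0.301 (SE, adjusted p = 0.779) and 0.97 ± 0.386 (SE, adjusted p = 0.782). The mean counts of these 3 windows and of the Foxn3 window ran from 15.4 to 29.1.

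In the fit of all 14 libraries, which holds day as a term, 28 of 577 members had an unadjusted p under 0.05 (4.85%, 6 higher and 22 lower), against 6.73% of all windows. None was called, against 0.0112% of all windows, and none had groups without overlap, against 0.116%. The split was 228 higher and 349 lower, with a median log2 difference of -0.055 against 0.0034, and with library totals as the scale 266 higher and 311 lower (46.1% higher, against 57.1% of all windows, whose median was then 0.035). Among the 171 members with a mean count of 50 or more, 84 were higher and 87 lower (49.1%, against 51.4% of all such windows). With the same minimum on day 3 alone, 67 of 155 members were higher and 88 lower (43.2% higher, against 50.9% of all such windows). The smallest p belonged to a cluster of 6 overlapping or adjacent windows past the end of Foxo1 (chr3:52353546-52354404), which was chosen after its values were seen. All 6 had values below 0 for R26TIR1(F74G) minus R26WT, from -0.49 to -0.79 on the log2 scale. Other windows within 2 kb of the smallest p had 0.068, 0.035 and -0.11 on the near side and -0.15 and -0.45 on the far side. In chr3:52353635-52353836 the R26WT libraries held 1.21, 1.79, 1.64 and 1.59 CPM on day 3 and 2.26, 2.15 and 0.900 CPM on day 7. The R26TIR1(F74G) libraries held 0.899, 1.02, 1.19 and 0.965 CPM and 1.18, 1.13 and 0.556 CPM. The genotypes did not overlap on day 3 and overlapped on day 7, where the shallow R26WT replicate 3 was low. The log2 difference over both days was -0.79 ± 0.229 (SE, adjusted p = 0.405). The 11 windows nearest to a start site had log2 differences from -0.20 (Foxp4) to 0.23 (Foxp1 99520993) over both days, with adjusted p of 0.705 or above. The value of 0.23 ran from 0.10 without the day 3 R26TIR1(F74G) replicate 2 to 0.39 without the day 3 R26WT replicate 1, which stood at 2.34 CPM against 0.885 to 1.09 CPM in its group. Among these and the most accessible windows, the smallest p were those of the Foxp1 window chr6:99309559-99309760, with -0.22 ± 0.0975 (SE, adjusted p = 0.683), and of the Foxp4 start window, with -0.20 ± 0.0926 (SE, adjusted p = 0.705).

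**Figure D5:**
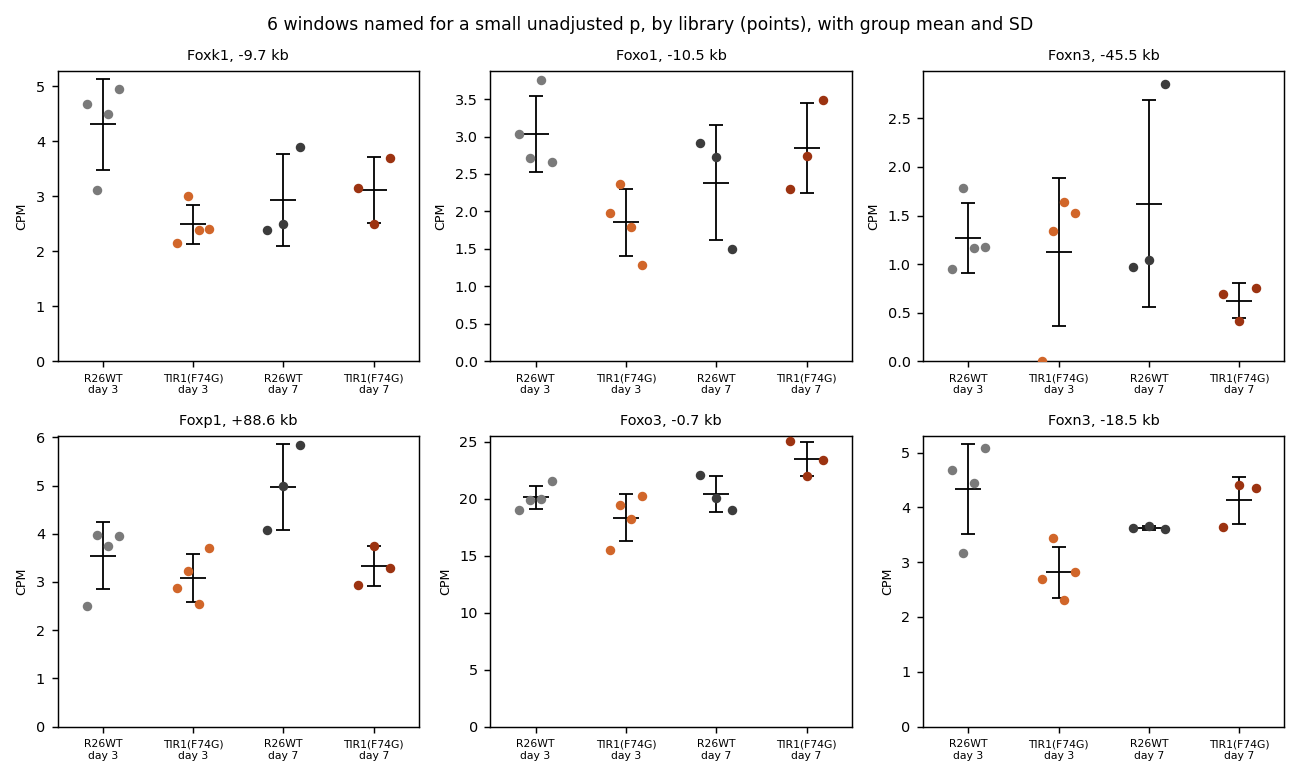
CPM in each library for 6 distal or start-flanking windows of Foxk1, Foxo1, Foxn3, Foxp1 and Foxo3, by group, with the mean as a line and the SD as a bar. The Foxk1 window 9.7 kb upstream is separated by genotype on day 3 and not on day 7, and the Foxo3 window 0.7 kb upstream is separated by day in the R26TIR1(F74G) libraries.

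Whether the genotype difference itself changed from day 3 to day 7 was tested by an interaction term. It reached an unadjusted p under 0.05 in 33 of 577 members (5.72%), against 6.32% of all windows, and called none, against 0% of all windows. In the sums it did so in 0 of 8 member genes, against 10% of all genes, with 0% called. The Foxk1 window chr5:142391668-142391869 had a difference between days of 0.93 ± 0.315 (SE, adjusted p = 0.675) and its overlapping neighbour 1.02 ± 0.307 (SE, adjusted p = 0.613), so a change from day 3 to day 7 was not established at either. The interaction of the gene sums ran from -0.14 in Foxk2 to 0.11 in Foxo1, with adjusted p of 0.645 or above.

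Within R26WT mice, day 7 minus day 3 reached an unadjusted p under 0.05 in 38 of 568 members (6.69%), against 5.25% of all windows. None was called, against 0.003% of all windows, and 37 had groups without overlap (6.51%), against 6.4%. The shares were again near the background. The Foxk1 neighbour chr5:142391735-142391936 held 2.33, 2.79 and 3.00 CPM on day 7 against 4.42, 3.64, 4.99 and 4.66 CPM on day 3, without overlap, with -0.73 ± 0.212 (SE, adjusted p = 0.698). Those day 7 R26WT values stood among the day 3 R26TIR1(F74G) values of 2.52, 3.43, 2.53 and 2.09 CPM. The other windows named by the rule were, with day 7 above day 3, the Foxn3 window chr12:99475209-99475410 at 1.34 ± 0.443 (SE, adjusted p = 0.841), the Foxo1 window chr3:52242543-52242744 at 0.46 ± 0.182 (SE, adjusted p = 0.911) and the Foxp1 window chr6:99432266-99432467 at 0.43 ± 0.199 (SE, adjusted p = 0.940). With day 7 below day 3 they were the Foxn3 window chr12:99652263-99652464 at -0.86 ± 0.305 (SE, adjusted p = 0.872) and the Foxp1 window chr6:99026420-99026621, 1.8 kb inside the gene, at -0.64 ± 0.228 (SE, adjusted p = 0.877). At the Foxn3 window chr12:99475209-99475410, the shallow day 7 replicate 3 held 2.85 CPM against 0.904 and 0.988 CPM in the other day 7 replicates. Of the gene sums, Foxp4 was the only one without overlap between days, against 6.45% of all genes, with a log2 difference of -0.13 ± 0.0673 (SE, 95% confidence interval -0.27 to 0.011, adjusted p = 0.946). None of the 8 had an unadjusted p under 0.05, against 5.06% of all genes, and none was called, against 0%. The day 3 and day 7 libraries have R26WT samples in common with the genotype comparisons, so these differences are not independent of them.

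Within R26TIR1(F74G) mice, 37 of 577 members had an unadjusted p under 0.05 (6.41%), against 6.96% of all windows. None was called, against 0% of all windows, and 32 had groups without overlap (5.55%), against 7.19%. The window with the highest level among the 6 named was chr10:42277340-42277541, 0.7 kb upstream of Foxo3. It held 15.5, 19.5, 18.2 and 20.2 CPM on day 3 and 25.03, 21.99 and 23.4 CPM on day 7, with 0.34 ± 0.120 (SE, adjusted p = 0.518). The R26WT libraries overlapped both groups or lay between them, at 19.0 to 21.5 CPM on day 3 and 19.0 to 22.1 CPM on day 7. The start-flanking Foxo1 window chr3:52267663-52267864 held 12.1, 11.3 and 10.7 CPM on day 7 against 6.65, 9.12, 8.87 and 9.73 CPM on day 3, again without overlap, with 0.37 ± 0.145 (SE, adjusted p = 0.604). The lowest value at both belonged to the day 3 replicate 1, the shallowest library. Inside Foxn3, chr12:99468521-99468722 held 3.64, 4.41 and 4.35 CPM on day 7 and 2.70, 3.43, 2.31 and 2.82 CPM on day 3, with 0.53 ± 0.207 (SE, adjusted p = 0.597). Upstream of Foxn3, chr12:99608960-99609161 held 1.07, 0.715 and 0.961 CPM against 1.08, 1.93, 1.71 and 2.25 CPM, the day 7 values being the lower ones, with -0.98 ± 0.318 (SE, adjusted p = 0.454). Its overlapping neighbour at 99609006 had -1.02 ± 0.347 (SE, adjusted p = 0.497). The low Foxp1 window chr6:99066378-99066579 held 0.481 to 0.556 CPM on day 7, with -1.15 ± 0.406 (SE, adjusted p = 0.520). For the gene sums, 0 of 8 had an unadjusted p under 0.05 or groups without overlap, against 10.7% and 10.6% of all genes, and none was called, against 0%. The smallest p was that of Foxn3, with -0.11 ± 0.0566 (SE, 95% confidence interval -0.24 to 0.0059, adjusted p = 0.483).

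The surrounding pathway genes were counted in the same way. On day 7, on day 3 and for the days combined, unadjusted p under 0.05 were found in 7.33%, 16.2% and 13.4% of all genes and calls in 0%, 0.101% and 0.0252%. Of 36 other forkhead genes, a list that holds Foxp3 itself, 30 had windows and 0 were called in any comparison. Their median log2 difference was -0.089 on day 7, 0.068 on day 3 and -0.019 for the days combined, and unadjusted p under 0.05 were found in 4, 5 and 2 of them. The smallest p in this list was that of Foxl2 on day 7 (log2 difference -0.48, adjusted p = 0.636) and of Foxp2 on day 3 (0.34, adjusted p = 0.171). For the days combined it was that of Foxp3, the gene whose protein was degraded, with a log2 difference of -0.24 over its 3 windows (adjusted p = 0.297). All 16 kinases and regulators upstream of FOXO proteins, among them members of the PI3K and AKT pathway, were tested, with 0 called and 1 under 0.05 in each of these comparisons. All 17 genes known as FOXO targets were tested, with 0 called and 2, 1 and 4 under 0.05. Of 12 partners of FOXP and FOXK proteins, 0 were called and 1, 1 and 2 were under 0.05, with a median log2 difference of -0.10 on day 3. No gene of the cell marker lists was called either, and 2, 3 and 3 of 7 Treg and CD4 T cell markers were under 0.05. The medians over all genes lay between -0.0037 and 0.0033 in these comparisons.

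For each member, the gene whose summed accessibility followed it most closely over the 14 libraries was found among 13008 other genes, by the root mean square difference of centred log2 CPM. The nearest were Sertad1 for Foxo1 (0.034), Chd2 for Foxo3 (0.031), Vcpkmt for Foxp1 (0.042), Cdc7 for Foxp4 (0.044), Spata13 for Foxn3 (0.049), Cux1 for Foxk1 (0.043), Zcchc10 for Foxk2 (0.081) and Rap1gds1 for Foxj2 (0.039). The median over all other genes was 0.13 to 0.24 for the members. These libraries share depth and signal concentration, and the nearest gene was the best of many, so the likeness is a description.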

How the data were processed

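The deposited table holds raw read counts per window for 14 bulk ATAC-seq libraries. The authors used Bowtie2 to align reads to mm10 (GRCm38) and MACS2 to find peaks, retained the peaks reproducible between replicates, merged them into a single atlas and counted reads in windows around the peak summits with featureCounts. Tn5 read shifting and duplicate removal were not given in the sources used here. The members and gene lists were chosen with earlier results of these data known, so their values are not independent evidence for any pattern.

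Windows were assigned to the nearest of 32117 RefSeq start sites (GRCm38.p6) of 21437 protein-coding genes. A gene's counts were the sum over its windows within 100 kb. Counts were scaled by TMM and printed as CPM. The windows' scale and the gene sums' scale differed by -7.39% to 6.03% per library. Tests used edgeR 4.0.16 (quasi-likelihood, two-sided, mean count of at least 10, Benjamini-Hochberg threshold 0.05) with limma 3.58.1 in R 4.3.3, fitted to the libraries of each comparison, with day as a term over both days. DESeq2 1.42.0 was an alternative, and tables were made with Python 3.11.15, pandas 2.3.3, numpy 2.4.6 and scipy 1.17.1. The scripts were tested on simulated data. Windows named are, per gene, those nearest to each start site and the most accessible one, and, per comparison, up to 3 per direction with the smallest p whose groups do not overlap. Outside this rule, a distal Foxo1 window of high level and the cluster past the end of Foxo1, with its neighbours, were named after their values were seen. Replicates of a group were compared in 18 pairs, with a chi-square per degree of freedom of 1.63 to 2.46, so none repeated another. Same-numbered replicates did not deviate together (correlations of -0.29 to 0.056), so numbers were not taken as pairs. Depth limits windows near the minimum, where a change of a few reads moves the CPM.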

Additional observations from a re-analysis of the deposited data

Results flagged for a closer look

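In 7 of 88 groups of 4 libraries, 1 library stood apart from the other 3 by the gap to its neighbour. Chance gives about 1 in 20 for independent groups not chosen by their values. Many of these windows were named for a small p in these libraries and some overlap, so that rate is no yardstick here. For Foxp4, the summed CPM of the day 3 R26TIR1(F74G) replicate 4 (124.04) lay above the others (121.3 to 121.4). The day 3 R26WT replicate 4 was highest at the Foxo1 start window (29.9 CPM, the others 26.5 to 27.1) and at the Foxo1 window chr3:52242543-52242744 (5.43 CPM, the others 3.76 to 4.04). The day 3 R26WT replicate 1 was lowest at both overlapping Foxp1 windows that begin at 99432233 (2.34 CPM, the others 3.76 to 4.04) and 99432266 (2.51 CPM, the others 3.76 to 3.97), and highest at the Foxp1 start window chr6:99520805-99521006 (2.34 CPM, the others 0.885 to 1.09). The day 3 R26WT replicate 2 was highest at the Foxn3 window chr12:99609006-99609207 (1.59 CPM, the others 1.24 to 1.3).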

How the results depend on the processing

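Over the comparisons and settings, members were counted 126 times for windows and 132 times for genes. None was called, with adjusted p of 0.155 or above and 0.131 or above. Not all of these are separate fits. Some read the main fit again, with a threshold of 0.1 or, for windows, within 10 kb or with outermost start sites alone. Counts of unadjusted p and of calls over all windows moved more. Over both days DESeq2 called 155 windows and 181 genes against 27 and 4 with edgeR, and on day 3 it called 200 genes against 16. On day 7 it called 0 windows against 11 and 6 genes against 0, between days in R26WT 0 windows against 7 and 6 genes against 0, in R26TIR1(F74G) 2 windows and 49 genes against 0, and for the interaction 5 genes against 0. With the replicate number as a block, calls went to 52 windows on day 7, 4 windows and 52 genes on day 3, 14 windows over both days, 16 in R26WT, and 62 windows and 8 genes in R26TIR1(F74G), with 0 members in each. The numbers share no more than a label, and this block changed no member call. Leaving out 1 library gave at most 364 windows, in R26TIR1(F74G), and 92 genes, on day 3.

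Signs of near-zero gene differences turned. With sums within 10 kb, day 7 values became 0.025 for Foxp1, -0.0019 for Foxp4, 0.081 for Foxn3 and 0.026 for Foxk1, day 3 values 0.027 for Foxp1 and 0.0066 for Foxk2, and both-day values 0.025 for Foxp1 and -0.057 for Foxp4. With 1 of overlapping windows kept, Foxn3 on day 7 was 0.011 and Foxo3 over both days -0.0011. On day 3, Foxk2 was 0.0023 with DESeq2 and 0.021 with the prefix of the mouse name as a term, and Foxj2 -0.0038 with that term. Over both days that term gave -0.017 for the Foxk1 and 0.0046 for the Foxn3 start window, and the Foxj2 window 8.8 kb upstream was 0.00075 with library totals and 0.0046 with the stricter count minimum of 50. The cause was not tested. Sums within 10 kb, the removal of overlapping windows and the use of each gene's outermost start site alone (360 windows, no sign turned) were chosen after seeing the data. Leaving out 1 library, values on day 3 ran from -0.053 to 0.0021 for Foxo3, -0.059 to 0.0023 for Foxp1, -0.044 to 0.035 for Foxp4, -0.14 to 0.13 for Foxk2 and -0.019 to 0.027 for Foxj2, and on day 7 from -0.076 to 0.042 for Foxn3. Over both days they ran from -0.039 to 0.0043 for Foxo1, -0.0093 to 0.025 for Foxo3 and -0.0022 to 0.046 for Foxn3. For start windows over both days they ran from -0.035 to 0.083 at Foxk1, -0.12 to 0.046 at Foxn3, -0.14 to 0.0083 at Foxp1 99028222 and -0.017 to 0.16 at Foxp1 99522563, and from -0.051 to 0.00067 at the Foxj2 window. The other changes of setting kept the sign in 243 of 256 gene values and 283 of 287 window values.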
